A study of Drosophila melanogaster with 3 samples.

Results

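Autophagy delivers cytoplasm to the lysosome inside double-membraned vesicles, the autophagosomes. The kinase complex of Atg1, Atg13 and Atg17 starts the process, Atg9, Atg2 and Atg18a bring lipid to the growing membrane, and Atg7 and Atg5 act in the pathways that attach the ubiquitin-like protein Atg8a to that membrane. In fly pupae, autophagy is known from the steroid-triggered remodelling and removal of larval tissues such as the fat body, midgut and salivary glands. The data described here are the positions of the chromatin regulator Snoo at the genes of these 9 proteins, Atg1, Atg2, Atg5, Atg7, Atg8a, Atg9, Atg13, Atg17 and Atg18a. The genes were chosen by name, out of 13968 protein-coding genes, and all 9 were found in the annotation. The choice was made with earlier results of these data known. Each peak summit that lay in the gene body or within 1 kb of it was counted for a gene.

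Snoo belongs to a family of transcriptional coregulators, named after Ski and SnoN, that act with Smad proteins. It was mapped by ChIP-seq, the sequencing of DNA that an antibody pulls down with chromatin, using an antibody against GFP on sonicated chromatin of whole pupae. The flies were of the strain snoo-MiMIC, in which an intronic eGFP exon turns snoo into a snoo-eGFP fusion gene. There was 1 group of 3 biological replicates, numbered 3, 5 and 6, of mixed sex and unknown age, and every animal carried the fusion. The labels do not say whether the replicates came from separate cultures or how many animals each held. No control library was analysed here, so nothing below is a comparison between conditions, and whether precipitation from flies without the fusion would give signal at these genes was not tested. In whole animals, strong occupancy in a few cells and weak occupancy in many cannot be told apart.

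The authors gave 30000 candidate regions for each replicate and for the pooled replicates, and a shorter list thresholded on the irreproducible discovery rate (IDR), a measure of how well ranks agree between replicates. This IDR list is the 6633 strongest regions of the pooled list, so a peak in it need not be found in each replicate. Signals are in the units of the authors' peak caller and are compared only within 1 list, and a rank of 1 is the strongest region of a list. The IDR list reached down to a signal of 128. A summit was called found in a replicate where 1 of the 6633 strongest regions of that replicate had its summit within 150 bp. The tagged gene Snoo held 15 IDR summits, with signals up to 942. Read depth is unknown.

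All 9 autophagy genes held an IDR summit in the gene body or within 1 kb, against 31.5% of all protein-coding genes. The autophagy genes are longer than most, with a median of 4579 bp against 2164.5 bp, and of the genes within their range of lengths (2833 to 20688 bp) 42.4% were called. Within 1 kb of an own transcript start, 7 of the 9 held an IDR summit, against 25.2% of all genes and 34.9% of those in the length range. Atg1 and Atg5 did not, and their summits lay deep in introns. When a gene was counted only if its own start was the nearest to the summit, 6 of 9 were called against 18.6% of all genes, Atg7 being the further gene without one. These shares describe the genes and carry no test. Because the 9 genes were chosen with earlier results of these data known, they do not stand for autophagy genes in general.

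Together the 9 genes held 14 IDR summits, between 1 and 3 each, with a median signal of 303 (138 to 697). The median over the whole IDR list was 222, and 10 of the 14 summits lay above it. Upstream of the gene lay 7 summits, in introns 5 and in a 5' UTR 2. Of the 14, 11 were within 1 kb of the start of some gene, against 53.8% of all IDR summits. The shares are not like for like, because only summits in or within 1 kb of a gene could enter the 14. The 14 are not independent of each other, since the summits of the pairs at Atg2 and Atg17 lie 208 and 200 bp apart, close to the smallest spacing in any list, 199 bp.

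**Figure D1:**
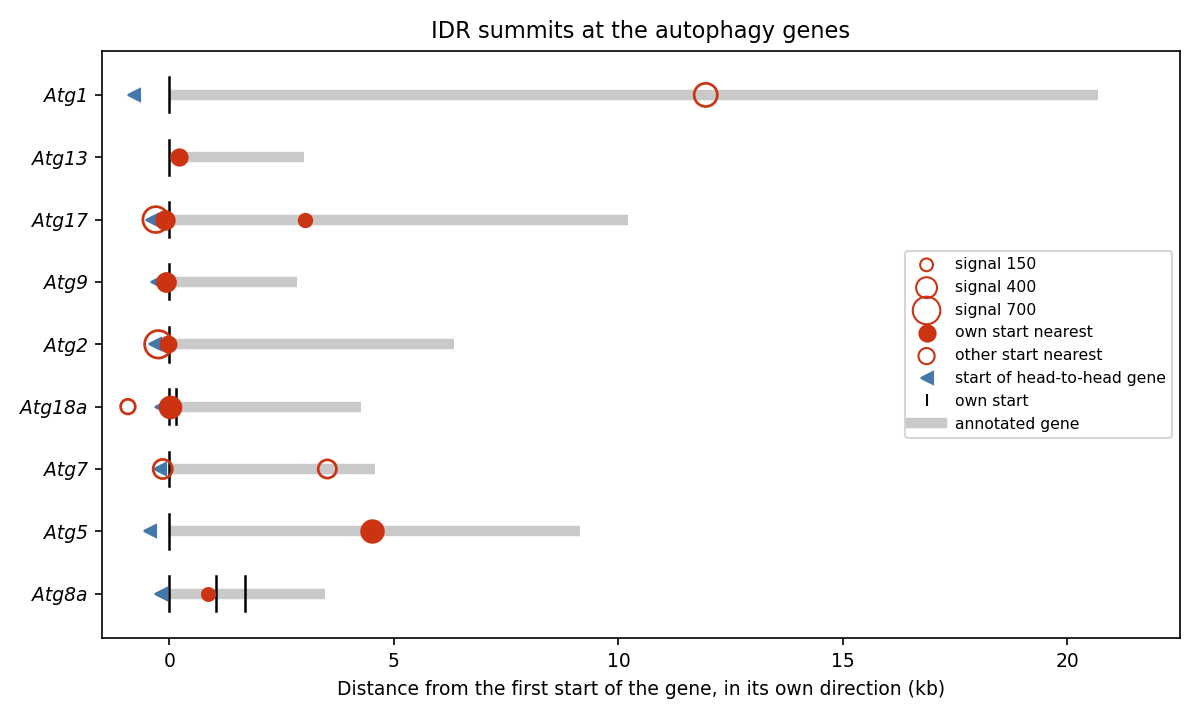
IDR summits at the 9 autophagy genes, with the distance from the first start of each gene in kb on the x axis and 1 row per gene; circle area shows the signal in the IDR list, filled circles have the gene's own start nearest and open circles another start. Most summits crowd the starts beside a head-to-head gene, while those of Atg1 (11943 bp) and Atg5 (4513 bp) lie inside the gene.

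The initiation kinase complex was described first. Atg17, which encodes the fly counterpart of the scaffold protein FIP200, had 3 summits and the second strongest signal of the 14. Its main summit (3R 5669251 to 5669694, dm6) lay 305 bp upstream of the start with a signal of 615 and rank 690 in the IDR list. The start of Xe7, which runs the opposite way from 379 bp upstream, was nearer at 74 bp. The signal in the replicates was 125 in replicate 3, 142 in replicate 5 and 342 in replicate 6, at ranks 950, 1135 and 522. All replicates thus placed it among their strongest 1135 regions. A second summit 105 bp upstream of Atg17 had a signal of 287 and varied far more, with ranks 4365, 15664 and 1790 in replicates 3, 5 and 6. In replicate 5 it fell outside the 6633 strongest regions.

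The stretch between Xe7 and Atg17 is shown because it carries both summits, and the intron because it holds a rare paired Smad site. Both are from the RefSeq Release 6 genome (dm6), plus strand, which is the strand of Atg17, at chr3R:5669373-5669672 and chr3R:5672636-5672836. In all sequences shown here, capitals mark the letters of any of 8 motifs searched on both strands, which are named further on.
Atg17 promoter: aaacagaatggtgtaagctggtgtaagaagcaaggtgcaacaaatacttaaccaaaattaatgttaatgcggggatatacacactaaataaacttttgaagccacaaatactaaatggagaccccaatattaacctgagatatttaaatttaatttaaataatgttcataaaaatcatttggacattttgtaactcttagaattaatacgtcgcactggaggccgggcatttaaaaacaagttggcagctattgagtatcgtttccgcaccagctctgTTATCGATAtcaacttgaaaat
Atg17 intron: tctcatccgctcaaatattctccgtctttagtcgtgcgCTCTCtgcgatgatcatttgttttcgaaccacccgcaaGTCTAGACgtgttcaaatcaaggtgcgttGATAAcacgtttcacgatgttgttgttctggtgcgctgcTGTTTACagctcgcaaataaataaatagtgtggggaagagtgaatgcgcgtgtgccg
In the promoter, the capitals are a DRE, the TATCGATA element bound by the promoter factor Dref, which overlaps a GATAA read on the other strand. The DRE is centred 48 bp from the second summit. In the intron, GTCTAGAC is a palindrome of paired Smad sites. The other capitals there are, in order from the left, a GAGAG read on the other strand before the palindrome, a site of GATA factors after it, and last a forkhead site read on the other strand.

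That intron summit of Atg17 (3R 5672518 to 5672953) lay 3023 bp inside the gene, with a signal of 147 and rank 5664, near the end of the IDR list. Its own start was the nearest. It ranked 2549 in replicate 3 and 4063 in replicate 5, and replicate 6 had no candidate within 150 bp. The palindrome was centred 20 bp from the summit.

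Atg1, the kinase of the complex, had 1 summit (3L 12793001 to 12793420), with a signal of 495 at rank 998. It lay 11943 bp inside the gene, in an intron of Atg1 and also in an intron of the nested gene CG42709, whose start was the nearest at 1955 bp. The signal was 159 in replicate 3, 155 in replicate 5 and 188 in replicate 6, at ranks 615, 986 and 1445. The summit is therefore high in every replicate although no start lies close. It is shown for that reason, from the RefSeq Release 6 genome at chr3L:12793098-12793248, minus strand, the strand of Atg1.
Atg1 intron: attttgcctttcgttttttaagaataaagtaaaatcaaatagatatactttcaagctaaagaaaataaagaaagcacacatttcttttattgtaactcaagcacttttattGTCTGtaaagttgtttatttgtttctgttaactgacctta
The capitals are a Smad box, CAGAC, read on the other strand. At the start of Atg1 itself, the pooled candidates held a region with a signal of 105 at rank 8318, whose summit was 62 bp inside the gene, below the IDR list. Its −log10 q of 4.27 was the maximum of the pooled list, which 9327 regions share. It ranked 4102 in replicate 3, 11253 in replicate 5 and 13121 in replicate 6. Replicate 3 alone placed it among its 6633 strongest regions. An IDR summit with a signal of 237 lay 1485 bp upstream of Atg1, beyond the 1 kb used here. Its nearest start, at 415 bp, was 1 of the head-to-head gene Sap130. A different start of Sap130 is the closest to Atg1, at 786 bp.

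Atg13, the regulatory partner of the kinase, had 1 summit (3R 8349805 to 8350240), in the 5' UTR 208 bp inside the gene. Its signal of 222 and rank of 3314 put it at the middle of the IDR list. The signal was 82.2 in replicate 3, 99.3 in replicate 5 and 43.0 in replicate 6, at ranks 2125, 1994 and 9423. Replicate 6 stands apart here, and its strongest region near the start of Atg13, 77 bp upstream, ranked 7459. Atg13 alone among the 9 genes lacked a head-to-head protein-coding start within 1 kb, and the nearest start of another protein-coding gene is that of CG7352 at 2096 bp.

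Among the genes of membrane supply, Atg2 had the strongest summit of the 9 genes. Atg2 encodes a lipid transfer protein that bridges the endoplasmic reticulum and the growing membrane. The summit (3L 2773922 to 2774397) lay 248 bp upstream of Atg2 with a signal of 697 and rank 548, and the start of the head-to-head gene CG12093 was nearer, at 83 bp. The signal was 166 in replicate 3, 148 in replicate 5 and 378 in replicate 6, at ranks 561, 1069 and 425, a mean of 685 ± 339 (SD, n = 3). Every replicate had its strongest region near Atg2 in this gap of 331 bp between both starts. A second summit 40 bp upstream of Atg2, nearest to Atg2 itself, had a signal of 212 and ranks of 7155, 2990 and 1576 in replicates 3, 5 and 6.

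The gap is shown because both summits lie in it, from the RefSeq Release 6 genome, plus strand, the strand of Atg2, at chr3L:2774008-2774307, which begins at the base after the start of CG12093.
Atg2 promoter: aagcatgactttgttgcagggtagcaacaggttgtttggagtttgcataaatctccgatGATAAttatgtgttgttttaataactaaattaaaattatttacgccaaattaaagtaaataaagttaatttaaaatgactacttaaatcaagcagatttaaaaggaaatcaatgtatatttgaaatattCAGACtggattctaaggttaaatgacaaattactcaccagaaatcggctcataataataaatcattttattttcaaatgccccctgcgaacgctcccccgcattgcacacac
The capitals are a GATAA centred 21 bp from the main summit and a CAGAC that is not wholly inside the window of 100 bp around either summit and so was not counted.

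Atg18a, which encodes a protein that binds phosphatidylinositol 3-phosphate on the forming membrane, had 2 summits. The stronger (3L 8186659 to 8187016) lay in the 5' UTR, 22 bp inside the gene, with a signal of 403 at rank 1417. It ranked 2332 in replicate 3, 1838 in replicate 5 and 1206 in replicate 6, so all replicates held it in their upper ranks. The other (3L 8185713 to 8186148) lay 926 bp upstream in an intron of ERR, the gene of the oestrogen-related nuclear receptor, whose start was nearer at 261 bp. Its signal was 199, and it ranked 2151, 10769 and 4421 in replicates 3, 5 and 6. In replicate 3 it was slightly stronger (81.6) than the summit at the start (78.0), while in replicates 5 and 6 it was weaker, at 30.1 against 104 and 81.9 against 211.

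In the conjugation pathways, IDR signals ran from 434 at Atg5 to 138 at Atg8a, with those of Atg7 between them. Atg5 is joined to Atg12 and helps to place Atg8a on the membrane, and Atg8a is the ubiquitin-like protein that is joined to a lipid there.

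Atg5 had 1 summit (X 7319112 to 7319437), in an intron 4513 bp inside the gene, with a signal of 434 at rank 1263. The same place is an intron of the overlapping gene CG1677. Signals of 105, 108 and 219 in replicates 3, 5 and 6 gave ranks of 1375, 1753 and 1132, a mean of 1420 ± 313 (SD, n = 3). The centre is shown as a strong summit without any of the 8 motifs in it, from the RefSeq Release 6 genome, minus strand, the strand of Atg5, at chrX:7319182-7319332.
Atg5 intron: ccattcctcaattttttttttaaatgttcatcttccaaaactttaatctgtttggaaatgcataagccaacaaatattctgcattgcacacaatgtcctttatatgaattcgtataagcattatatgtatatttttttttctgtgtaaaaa
At the start of Atg5, the strongest pooled candidate, 460 bp upstream and nearer to the head-to-head gene Dok, had a signal of 50.6 at rank 16574 and a −log10 q of 1.17. The strongest candidate within 1 kb of the start ranked 12197 in replicate 5 and 9209 in replicate 6, with summits at -526 and -306 bp from the start, and replicate 3 had none there. An IDR summit with a signal of 984 at rank 240, above every summit counted for the 9 genes, lay 1252 bp upstream of Atg5, beyond the 1 kb limit and 808 bp from the start of Dok, which encodes an adaptor of tyrosine kinase signalling.

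Atg8a had the weakest summit of the 14 (X 10767321 to 10767563), with a signal of 138 at rank 6060. Atg8a has 3 annotated starts. The summit lay 179 bp upstream of the middle 1 and 853 bp inside the gene as counted from the first start. It was in an intron of the transcript that begins at the first start. It ranked 5765 in replicate 3 and 6096 in replicate 6. Replicate 5 had no candidate within 150 bp, and its strongest region at the gene, 472 bp inside from the first start, ranked 3426. The replicates thus differ on where in the first part of Atg8a their strongest region lies. The centre is shown from the RefSeq Release 6 genome, minus strand, the strand of Atg8a, at chrX:10767410-10767560.
Atg8a intron: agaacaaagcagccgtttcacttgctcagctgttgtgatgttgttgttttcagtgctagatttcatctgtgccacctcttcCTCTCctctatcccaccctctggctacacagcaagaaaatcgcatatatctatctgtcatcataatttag
The capitals are a GAGA site, GAGAG, read on the other strand.

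**Figure D2:**
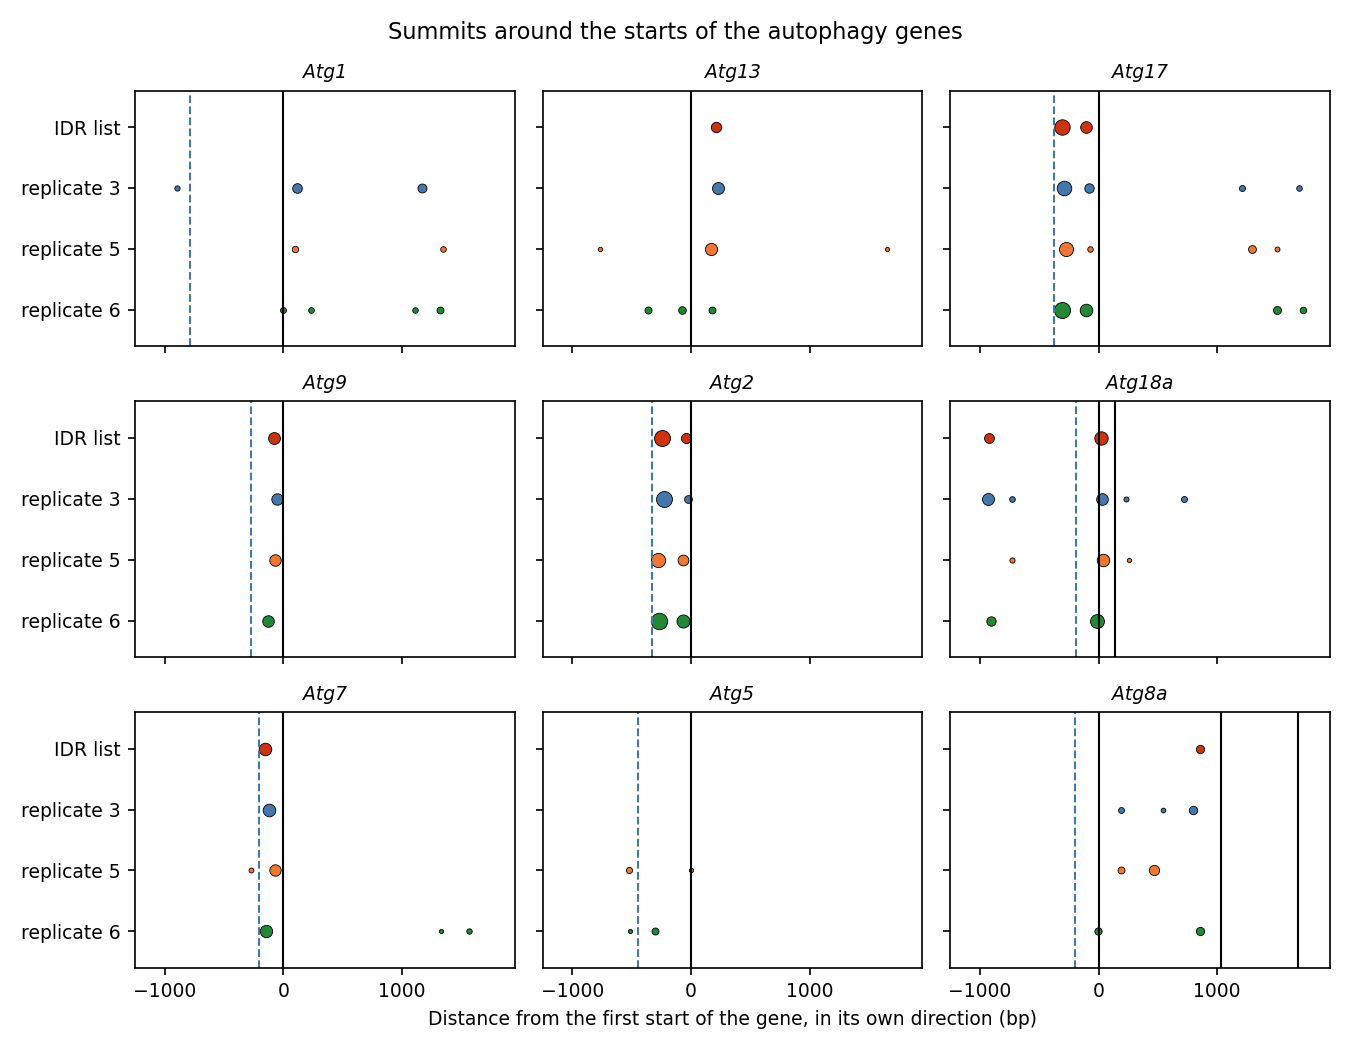
Summits in the IDR list and in the candidate lists of replicates 3, 5 and 6 around the starts of the 9 genes, with the distance from the first start in bp on the x axis; black lines are own starts, dashed blue lines the start of a head-to-head gene, and larger circles have better ranks in their list. At Atg2, Atg17, Atg9 and Atg7 all lists place a summit between both starts, while Atg1 and Atg5 have no IDR summit in view.

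Atg9 encodes the transmembrane protein of the autophagy machinery, which moves lipids between the leaflets of the membrane. Its single summit (2R 16294284 to 16294406) lay 77 bp upstream with a signal of 299 at rank 2204, in the gap of 270 bp to the start of the head-to-head gene CG7747. The signal was 74.9, 87.5 and 133 in replicates 3, 5 and 6, and the ranks 2504, 2439 and 2398 were the closest among the 12 summits with a candidate in every replicate, with a mean of 2447 ± 53.5 (SD, n = 3). Atg9 was thus a mid-ranking gene in which the replicates hardly differed.

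Atg7, the enzyme that activates Atg8a and Atg12 for conjugation, had 2 summits found in all 3 replicates. The summit upstream (2R 18625045 to 18625322) lay 151 bp from the start of Atg7 with a signal of 339 at rank 1816, and 54 bp from the start of Sec6, a gene of the exocyst that runs the opposite way from 205 bp upstream. It ranked 1797, 2494 and 1913 in replicates 3, 5 and 6. The summit inside (2R 18621401 to 18621634) lay 3515 bp from the start of Atg7, in an intron, with a signal of 307 at rank 2111, and 12 bp from the start of the nested gene CG5335. It ranked 1397, 2192 and 2969. The 2 summits changed places between replicates, the intron ranking better in replicates 3 and 5 and the start in replicate 6. For neither of them was the start of Atg7 the nearest.

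Across all 14 summits, 8 were found in all 3 replicates, against 55.5% of the IDR list, and the other 6 in 2 replicates. For a summit at an own start found in every replicate, 5 of the 9 genes were called, against 16.1% of all genes, namely Atg17, Atg9, Atg2, Atg18a and Atg7. In the 6633 strongest regions of each replicate alone, a summit within 1 kb of an own start was present for 8 of 9 genes in replicate 3 (25.4% of all genes), 7 in replicate 5 (26.2%) and 6 in replicate 6 (26.5%). Atg5 was absent in each. Atg1 was present in replicate 3 and absent in replicates 5 and 6, and Atg13 was absent in replicate 6.

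**Figure D3:**
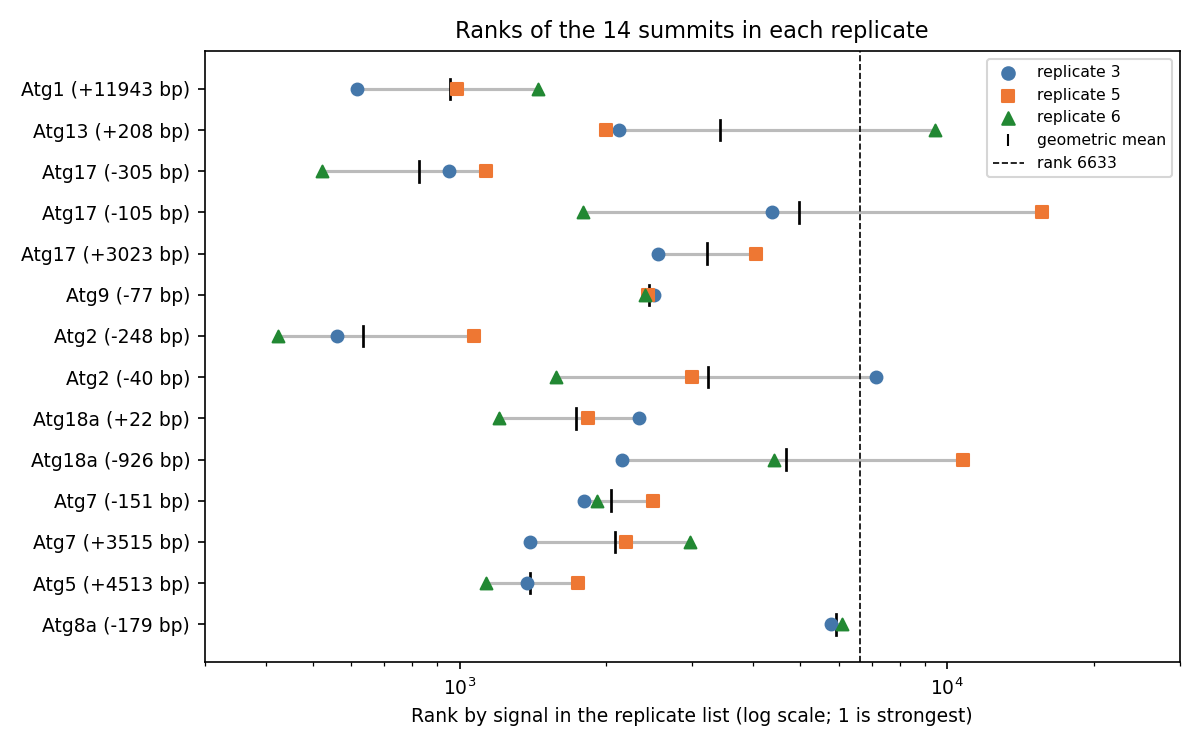
Rank by signal of the 14 IDR summits in the lists of replicates 3, 5 and 6, on a log x axis, with the distance to the nearest own start in each label, vertical ticks for the geometric mean and a dashed line at rank 6633. The ranks of the Atg9 summit lie between 2398 and 2504, while those of the second Atg17 summit run from 1790 to 15664.

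Ordered by the mean log10 rank of the strongest region of each gene in the 3 replicates, the genes ran Atg2, Atg17, Atg1, Atg5, Atg18a, Atg7, Atg9, Atg13 and Atg8a. The first and the last stood at 2.80 ± 0.21 and 3.69 ± 0.14 (SD, n = 3). Neighbours in this order did not differ beyond their spread, except Atg7 and Atg9, whose gap of 0.13 exceeded the larger SD of 0.10. The order takes the strongest region anywhere in the gene, which for Atg7, Atg18a, Atg13 and Atg8a is not the same region in every replicate.

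The 3 genes whose start summits had the ranks most like those of Atg2 were CG12268, Ufsp1 and bun. Likeness was the Euclidean distance of log10 ranks over the 3 replicates, with values of 0.13, 0.15 and 0.15 in that order. The IDR signals of these summits were 660.0, 647 and 755, beside 697 for Atg2.

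Of the 14 summits, 8 had the start of their own autophagy gene nearest and 6 another start, those of CG42709, Xe7, CG12093, ERR, Sec6 and CG5335. Among the 3316 strongest IDR peaks the number with the own start nearest was 5 of 10. When each replicate was left out and summits were counted if both others held them, it was 4 of 9 (replicate 3 left out), 5 of 11 (replicate 5) and 5 of 10 (replicate 6). The nearest start of another protein-coding gene was head-to-head and within 1 kb for 8 of the 9 genes, against 33.1% of all protein-coding genes. Among all genes with such a nearest neighbour 39.1% had an IDR summit at an own start, and among all other genes 18.4%. The counts for the autophagy genes were 6 of 8 and 1 of 1, the last being Atg13. With 2 starts this close, the lists do not say to which gene a summit belongs.

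The motif counts used 201 bp centred on each of the 14 summits, beside the same windows of all 6633 IDR summits. GATAA, the site of GATA factors, was in 5 windows (38.0% of IDR windows), CAGAC in 4 (20.5%), and GAGAG in 4 (26.6%). The forkhead site GTAAACA was in 1 (5.35%), at the Atg17 intron. The DRE was in 1 (2.25%), at the second Atg17 summit. The core of Motif 1, GGTCACAC, which the promoter factor M1BP binds, was in 1 (1.90%), at the start of Atg7. CACGTG, the site of Mitf and Myc proteins, was in none (1.90%). The paired Smad palindrome GTCTAGAC was in 1, again the Atg17 intron, and in 9 of all 6633 windows (0.136%). A match is only a match of letters. The median GC content was 38.3% in the 14 windows (25.9 to 46.8%) and 35.8% in all.

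In the list of other core autophagy genes, 7 of 14 had an IDR summit within 1 kb of an own start, beside the 25.2% of all genes. Their signals lay between 130 and 280 with a median of 151, beside a median of 339 for the strongest start summits of the 7 called autophagy genes. The 5 genes of the class III PI3-kinase complex, which makes the lipid that Atg18a binds, were all called, and this group was singled out after its values were seen. They were Vps15 (signal 228), Uvrag (224), the kinase gene Pi3K59F (151), Atg6 (135) and Atg14 (130). The summits of Pi3K59F and Atg14 were each found in 1 replicate only. To the summit of Atg6, the start of Pisd was nearer, at 2 bp against 3 bp. Of 7 further conjugation genes, the protease gene Atg4b (280) and the conjugating enzyme gene Atg3 (139) were called, and the start of Nufip was nearer to the summit of Atg3. Summits found in all 3 replicates were present at Vps15 and Atg4b, 2 of the 14, against 16.1% of all genes. When each replicate was left out and summits were counted if both others held them, the number was 3 (replicate 3 left out), 2 (replicate 5) and 3 (replicate 6), against 19.0, 17.6 and 18.1% of all genes. In these counts and in the count over all 3 replicates, the share in the list was near or below that of all genes.

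In the list of cargo and fusion genes, 4 of 14 were called, near the share of all genes. They were the SNARE genes Snap29 (signal 404) and Syx17 (187), the tether gene Epg5 (155) and the small GTPase gene Rab7 (138). To the summit of Snap29, the start of CG5554 was nearer, at 101 bp against 137 bp. The summit of Epg5 was found in 1 replicate only. Neither cargo adaptor gene, ref(2)P or bchs, was called. In the list of upstream regulators, 10 of 14 were called (25.2% of all genes), and 8 had a summit found in all 3 replicates (16.1% of all genes). The strongest was Sesn, the gene of the stress-responsive sestrin that restrains TOR, with a signal of 1792 at rank 53, 226 bp upstream of the start and as far from that of CG46429. SNF4Agamma and alc, the genes of the gamma and beta subunits of AMPK, had signals of 587 and 807. The summit of alc lay 970 bp upstream, and the starts of CG8788 and CG44286 were nearer to it. Rubicon, a negative regulator of autophagy, had 493. The genes without a start summit were Tsc1, gig, AMPKalpha and Mitf.

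**Figure D4:**
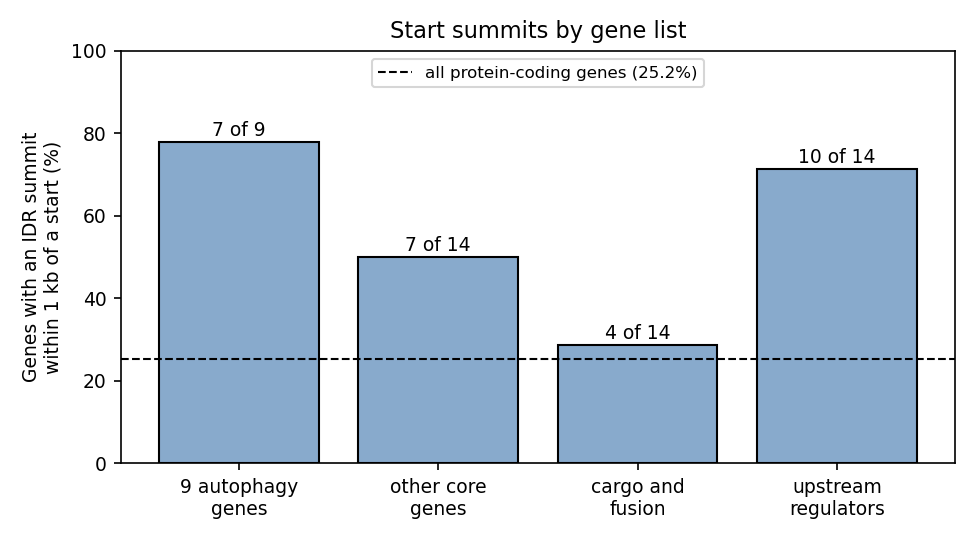
Share of genes with an IDR summit within 1 kb of an own start, in percent, for the 9 autophagy genes and 3 lists of related genes, with the number of genes above each bar and a dashed line at 25.2%, the share of all protein-coding genes. The cargo and fusion list (28.6%) stands near the line and the other lists above it, with no test.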

How the data were processed

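ChIP-seq peak lists of 3 biological replicates of 1 group were analysed on the dm6 build. The authors deposited 1 list of 30000 candidate regions per replicate, 1 such list of all replicates pooled, and an IDR list of 6633 peaks, in narrowPeak format. The signal of a region and the −log10 of its q-value are the deposited values. Regions were ranked by signal, and the q-value was used only for ties in signal. It stood at its maximum in all 6633 IDR peaks and so could not order them. Per the deposited file listings, a control alignment entered the signal. Aligner, peak caller, IDR cut-off and read depth: not given in the sources used here. No interval that needs depth is printed. The 5 lists on dm3 were not used. The lists hold regions down to background by design, and signal was made by the authors on a scale that differs between lists, so replicates were compared by rank.

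Starts, exons and names came from the Ensembl release 115 annotation of BDGP 6 and sequence from the RefSeq genome of the same build, and no peak ran past the end of an arm. Regions on the mitochondrial genome were left out, which left 29994 in replicate 3. Starts of transposable elements were not used as nearest starts. Summits matched within 150 bp, the window around starts and genes was 1000 bp and motif windows reached 100 bp to each side. Counting was tested on simulated summits. Tools were python 3.11.15, pandas 2.3.3, numpy 2.4.6 and, for drawing, matplotlib 3.10.9.

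The genes, lists, motifs and the rule for named genes were chosen with earlier results of these data known. The rule took every IDR summit of the 9 genes, the candidates at a start without one, each nearer gene, up to 4 called genes of each list by signal, and the 3 genes most like the one with the strongest start summit. Beyond this rule, every called gene of the list of other core genes was named. So were some genes without a start summit in the other lists. The stretches of sequence shown, the shares by gene length and head-to-head neighbours, the summits beyond 1 kb, the exclusion of transposable elements and the synonym mTor for Tor were chosen after seeing the data. The sequence at 1 start is not reported here.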

Additional observations from a re-analysis of the deposited data

How the results depend on the processing

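The counts of autophagy genes with an IDR summit in the body or within 1 kb (9) and at an own start (7) moved by less than 1.5 times in each of the 8 alternatives run for each. At own starts the lowest was 5, with summits found in all 3 replicates (16.1% of all genes), and the highest 9, with a window of 2000 bp (30.7%), which reaches the summits upstream of Atg1 and Atg5. Leaving out each replicate in turn gave 7 to 8 genes for the body (23.5 to 25.1% of all genes) and 5 to 6 at own starts (17.6 to 19.0%). The 8 summits found in all 3 replicates became 6 to 12 under other rules of matching, and 9 to 11 without each replicate. The 8 summits with the own start nearest became 5 among the 3316 strongest peaks and 4 to 5 without each replicate, since fewer summits enter. It was 8 with starts of transposable elements included, an alternative chosen after seeing the data. The 7 other core genes (25.2% of all genes) became 3 among the 3316 strongest peaks (14.6% of all genes). They became 2 with summits found in all 3 replicates (16.1%), and 2 to 3 without each replicate (17.6 to 19.0%). With motif windows of 50 bp on each side, the DRE was in 0 windows (1.1% of IDR windows). The M1BP core was then in 0 (1.01%) and GAGAG in 1 (12.9%). No paired analysis was possible because there was 1 group. With no control library analysed here and depth unknown, candidates below the IDR list are given as values only.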
